A study of Homo sapiens with 9 samples.

Results

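Gene expression was compared between 2 groups of EA.hy926 cells, 3 arrays each: cells given 5 nm silver nanoparticles for 6 h and cells left unexposed. These are 6 of the 9 Affymetrix whole-transcript arrays of the series. The other 3 arrays hold cells given 100 nm particles for 6 h and are used here only beside the 5 nm values. EA.hy926 is an established hybrid line, made by fusing umbilical vein endothelial cells with the A549 lung carcinoma line, so it is 1 immortal line and not primary endothelium. Each particle was given at about its LD50, the median lethal dose, and the sources used here give no mass doses, so particle size and mass dose cannot be told apart. Each array took biotin-labelled cDNA from 300 ng of total RNA. The labels number the replicates 1 to 3 in each group without saying whether they are separate cultures, so the p-values below cover only the spread between these samples, and that spread may be technical. The question named by the series title was whether interleukin-11 and stress genes increase after silver.

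All values are log2 intensities, on which a difference of 1 is a 2-fold change in signal. Array medians were 5.15 to 5.64. Of 20 endothelial markers with a probe set, 18 reached the floor of 5 on all 3 unexposed arrays and 18 did so on all 3 arrays after 5 nm particles, among them PECAM1, TIE1, ICAM2 and ENG. EMCN and ANGPT2 were the exceptions. VWF and CD34 reached the floor with dim signals, at 6.07, 6.03 and 5.84 and at 6.17, 5.75 and 6.16 on the unexposed arrays. Epithelial markers reached it for 10 of 15 in both groups (KRT18 and KRT7 among them), with array means of 6.12 to 6.68 unexposed and 6.07 to 6.63 exposed. Leukocyte markers reached it for 6 of 7: LYZ, LCP1, NKG7, TYROBP, CSF1R and CD68, the last a lysosomal protein also made outside leukocytes. NKG7, for example, stood at 6.42, 6.19 and 6.49 on the unexposed arrays. Reaching the floor therefore does not show that a marker is expressed. No marker of the 3 lists differed by over 0.5 in the same direction in all 3 replicate pairs. The mean level of the endothelial markers was 8.38 to 8.83 on the unexposed arrays and 8.24 to 8.72 after 5 nm particles. Of 19 tested endothelial markers 7 were lower and 0 higher in all 3 pairs (median difference -0.12), where 13.4% of all tested genes were lower in all pairs. The part of this shift in the results below was not tested. In bulk RNA, fewer cells of a type and less RNA per cell cannot be told apart.

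Silver particles release silver ions, which bind thiols in proteins. Metallothioneins are small cysteine-rich proteins that hold metal ions and are transcribed through the metal-sensing factor MTF1. Misfolded protein frees the heat shock factor HSF1, which switches on chaperones, while oxidised or modified KEAP1 frees NRF2, the activator of antioxidant enzymes. Stress kinases that phosphorylate the translation factor eIF2-alpha slow protein synthesis and favour the factors ATF4 and CHOP, a programme called the integrated stress response.

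For each of 12155 named genes, the unexposed array was subtracted from the 5 nm array of the same replicate number. In all 3 pairs 99 genes (0.814%) were higher by over 0.5 and 18 genes (0.148%) were lower by over 0.5. These 117 genes were therefore chosen by their 5 nm differences, and their sizes and directions are given as a description. After 100 nm particles 0 genes met the same rule, higher or lower. The unexposed mean lay under the floor of 5 for 7 of the 99, where sizes are uncertain. A gene was tested if it reached 5 on at least 3 arrays, which the 5 nm arrays alone can meet, as in GCM1. Over 1 in all pairs there were 27 higher and 0 lower genes, and over 2 there were 6 higher genes: MT1G, HMOX1, LINC00622, IL11, MMP10 and CXCL8. Without the size limit, 976 genes (8.03%) were higher and 1626 genes (13.4%) were lower in all 3 pairs. Most of the lower genes in that count were within 0.5 in at least 1 pair. The difference was exactly 0, to the 5 decimals deposited, for 44.8%, 40.6% and 55.5% of tested genes in pairs 1, 2 and 3, and for 58.7%, 59.5% and 65.9% after 100 nm particles. Identical values were held by 39.8% to 65.9% of tested genes in the 9 pairs of arrays with the same number, but by at most 0.0165% in the 27 pairs with different numbers. The sources used here do not say which arrays were summarised together or what else those of 1 number share, so arrays of the same number may not have been measured independently. The medians of 0.00 and the p-values with the number as a block, given below, rest partly on these identical values.

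Pair 2 carried the largest differences. It held the largest of the 3 differences for 89 of the 99 higher genes and 14 of the 18 lower genes, and pair 3 held the smallest for 64 and 12. The median difference of the higher genes was 1.02, 1.85 and 0.83 in pairs 1, 2 and 3, and that of the lower genes was -0.71, -1.30 and -0.61. Over all tested genes, 216, 668 and 185 were higher by over 0.5 in pairs 1, 2 and 3, and 154, 794 and 77 were lower, so pair 2 also differed most over all tested genes. Without replicate 3 the counts became 186 higher and 116 lower genes, and without replicate 1 the lower count was 36. The 3 unexposed and the 3 exposed arrays did not overlap for 80 of the 99 higher genes and 6 of the 18 lower genes. Over all tested genes this was so for 171 (1.41%) with exposed arrays above and 57 (0.469%) with exposed arrays below, but the 117 were chosen on these 6 arrays, so nothing is read from the higher share.

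In limma over all 9 arrays, with Benjamini-Hochberg adjustment over all tested genes, 9 genes (0.0740%) passed at an adjusted p under 0.05, all of them higher and all among the 99 (15 genes without the 5 nm array of replicate 3): MT1G, HMOX1, CXCL8, MMP10, IL11, HSPA6, LINC00622, KDM6B and BAG3. No gene passed lower, where 36 genes were lower and 165 higher at an unadjusted p under 0.05. The replicate numbers pair the arrays, and with the number as a block in limma 36 genes (0.296%) passed higher and 43 genes (0.354%) lower. MT1G, HMOX1, MMP10 and CXCL8 were the 4 genes that passed both ways. The calls of the block had a median difference of 0.36 when higher and -0.27 when lower, and 11 and 2 of them were among the 99 and the 18. Its total of 79 became 2 without the unexposed array of replicate 3, 10 or 11 without another unexposed array, 11 to 13 without a 100 nm array and 131, 326 or 446 without the 5 nm array of replicate 1, 2 or 3, and 0 genes passed when the block was fitted to the 6 arrays alone.

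Metallothioneins were led by MT1G. Its level was 5.18, 4.03 and 4.95 on unexposed arrays 1, 2 and 3 and 10.88, 10.23 and 9.38 after 5 nm particles. The groups lay far apart, but 2 of the 3 unexposed values were under the floor of 5, where signal may not track RNA amount, and the size of its rise is uncertain (difference 5.44, 95% interval 4.55 to 6.33, adjusted p = 0.00069, limma). MT1E went from 7.33, 7.14 and 6.90 to 9.09, 9.49 and 8.34, a difference of 1.85, or 3.60-fold. MT1X, already bright in unexposed cells, went from 12.07, 11.47 and 11.29 to 12.99, 12.52 and 12.76, a difference of 1.15. Exposed and unexposed arrays did not overlap for MT1E or MT1X, and neither gene passed in limma (adjusted p = 0.0666 and 0.491, with ranges over 19 alternatives of 0.02 to 0.548 and 0.0271 to 1). Of 8 tested members of the metallothionein list, 3 moved by over 0.5 in all pairs and the list's median difference was 0.43, where the median of all tested genes was 0.00. MT1F was higher by 0.38, 0.78 and 0.75, so pair 1 kept it out. MT2A, another widely expressed metallothionein, differed by -0.07, -0.17 and -0.14, and MTF1, the factor that senses metal, by 0.13, 0.37 and 0.18. MT1E, MT1G and MT1X lie in a cluster on chromosome 16, 55.4 kb from MT1E to MT1X, and their sequences are similar, so signal could be shared among them. Metal transport and storage genes had 2 tested members, ATOX1 (-0.02) and CCS (-0.09), which carry copper inside the cell.

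The metal response element bound by MTF1 was searched in the 250 bases before each gene's start as TGCGCNC or TGCACNC on both strands. The MT1X promoter, shown because it holds 4 matches (in capitals) in the gene that is bright before and after silver, lies at chr16:56682220-56682469 on the plus strand of GRCh38.p14, as RefSeq gives it.
MT1X: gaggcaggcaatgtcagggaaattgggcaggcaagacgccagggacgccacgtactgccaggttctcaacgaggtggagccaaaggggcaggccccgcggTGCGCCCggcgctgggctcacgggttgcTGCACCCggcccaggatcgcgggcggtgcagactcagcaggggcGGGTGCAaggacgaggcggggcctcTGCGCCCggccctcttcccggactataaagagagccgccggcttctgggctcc
The matches start 150, 122, 78 and 53 bases before the gene's start, the third of them on the opposite strand. The letters are common: 19 of 72 higher genes with a promoter sequence (26.4%) and 31.4% of the promoters of 9178 tested genes held them. A match describes these letters only.

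Heat shock chaperones, which refold or hold damaged proteins, made up 7 of the 99. Of 22 tested members of the heat shock list, 7 were higher by over 0.5 in all pairs, 15 were higher in all pairs at any size and 1 was lower in all pairs; the list's median was 0.37. HSPA6, the strictly inducible HSP70, went from 5.66, 5.12 and 5.47 to 7.50, 8.22 and 7.71. Its groups were separated by more than their spread, and it rose by 2.39 (95% interval 1.81 to 2.97, 5.25-fold, adjusted p = 0.00555, limma). BAG3, the co-chaperone that hands HSP70 clients to autophagy, rose by 1.83 (adjusted p = 0.0453, limma), from 10.22, 9.66 and 9.68 to 11.71, 11.98 and 11.36. These 2 calls did not hold with the block (adjusted p = 0.0671 and 0.0514, limma), and over 19 alternatives the adjusted p ranged from 0.0022 to 0.548 for HSPA6 and from 0.00594 to 0.548 for BAG3.

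HSPA1A and HSPA1B, the main stress-inducible HSP70 genes, were bright before exposure. HSPA1A went from 11.92, 11.73 and 11.29 to 13.61, 13.51 and 13.08, and its 3 pair differences of 1.69, 1.78 and 1.79 were even (SD 0.06, n = 3). HSPA1B went from 11.66, 11.30 and 10.79 to 13.53, 13.63 and 12.77. Both passed with the block (adjusted p = 0.00271 and 0.0173, limma) and not without it (0.0603 and 0.0739), with ranges over 19 alternatives of 0.00271 to 0.346 and 0.00594 to 0.507. HSPA1L, a testis HSP70 whose gene starts 0.26 kb from HSPA1A, was higher by 0.65, 2.08 and 0.96. All 3 genes have 5 probe sets each, and every set was higher in every pair. Several sets gave the same differences, 1.67, 1.89 and 1.82 in HSPA1A and 0.65, 2.08 and 0.96 in HSPA1L, so they are not separate measurements. The coding sequences of HSPA1A and HSPA1B are near-identical and the genes sit together on chromosome 6, so which copy was measured is uncertain. Whether HSPA1L shares signal with them was not tested. HSPH1, an HSP70 nucleotide exchange factor of the HSP110 class, was higher by 1.05, 1.67 and 1.21, and CHORDC1, an HSP90 co-chaperone, by 0.99, 2.42 and 1.27. Members outside the rule had mean differences under 0.5, although some passed it in pair 2: the mitochondrial HSP70 gene HSPA9 differed by 0.43, 0.60 and 0.41, with a mean of 0.48, HSPA4 by a mean of 0.45, the HSP90 co-chaperone PTGES3 by 0.40, the chaperonin HSPD1 by 0.34 and HSF1 itself by -0.04. PPID, another HSP90 co-chaperone that is not on the list, stood just outside the rule at 0.499, 0.814 and 0.511.

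A pair of inverted heat shock units was searched as GAANNTTC or TTCNNGAA on both strands, where neighbouring pairs can overlap. The promoters of HSPA6, which had the largest difference of the list, and HSPA1A, whose pairs were even, are shown with every match in capitals, at chr1:161524290-161524539 (plus strand) and chr6:31815293-31815542 (plus strand) of GRCh38.p14, from RefSeq.
HSPA6: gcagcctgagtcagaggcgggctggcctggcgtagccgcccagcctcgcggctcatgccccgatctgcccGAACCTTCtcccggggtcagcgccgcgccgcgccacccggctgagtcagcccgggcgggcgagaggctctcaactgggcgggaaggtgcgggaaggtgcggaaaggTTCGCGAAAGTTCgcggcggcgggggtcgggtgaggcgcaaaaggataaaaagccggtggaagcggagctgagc
HSPA1A: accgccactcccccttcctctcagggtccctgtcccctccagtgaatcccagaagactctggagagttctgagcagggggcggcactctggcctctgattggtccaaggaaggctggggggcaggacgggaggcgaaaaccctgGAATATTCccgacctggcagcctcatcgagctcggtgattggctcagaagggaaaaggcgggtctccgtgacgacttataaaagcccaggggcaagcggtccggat
HSPA6 held 3 matches, starting 180, 74 and 69 bases before its start, of which the last pair overlap, and HSPA1A held 1, starting 106 bases before its start. Among the 7 heat shock list members that moved, 5 promoters held a match (HSPA1A, HSPA1B, HSPA1L, HSPA6 and CHORDC1). Among 13 that did not move and had a sequence, 3 did. Over all 72 higher genes with a sequence the share was 19.4%, beside 8.86% of 9178 tested genes. Among 10 lower genes 0 held it. The promoters counted may not all be separate. HSPA1L starts 0.26 kb from HSPA1A, so the same match may be counted for both genes. HSPA1B is near-identical to HSPA1A in coding sequence. Nothing is therefore read from the differences between these shares.

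Heme and redox enzymes were led by HMOX1, the inducible enzyme that breaks down heme. HMOX1 went from 7.99, 8.10 and 8.72 to 11.57, 12.16 and 11.90. Every exposed array lay above every unexposed array, and the rise was 3.61 (95% interval 2.97 to 4.24, 12.2-fold, adjusted p = 0.000704 in limma, 0.0202 with the block and 0.00026 to 0.451 over 19 alternatives). TXNRD1, cytosolic thioredoxin reductase, went from 9.75, 9.15 and 9.10 to 10.44, 10.05 and 9.87, an even difference of 0.79 that passed with the block (adjusted p = 0.0202, limma; 0.0202 to 1 over 19 alternatives). SRXN1, which repairs overoxidised peroxiredoxins, was higher by 0.88, 1.39 and 0.76 with overlapping groups. EID3, a chromatin gene annotated inside TXNRD1, was higher by 0.84, 1.22 and 1.16, and with no strand stated signal from the 2 genes cannot be told apart. Of 19 tested NRF2 and antioxidant genes these 3 moved by over 0.5 in all pairs, 10 were higher and 3 lower in all pairs, and the median was 0.26. Among the rest, MAFG, a small partner of NRF2, differed by 0.85 with 0.36 in pair 3, OSGIN1, an oxidative stress growth inhibitor, by 0.73 with 0.00 in pair 3, NFE2L2, the gene of NRF2, by 0.51, glutathione reductase GSR by 0.37, catalase by -0.14 and GPX1 by -0.20. The antioxidant element TGACNNNGC stood in 11.1% of the 72 promoters of higher genes and in 11.9% of all.

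Polyamine turnover was represented by 3 genes. SAT1, which acetylates spermidine and spermine, went from 8.87, 8.73 and 9.95 to 10.58, 10.94 and 10.66. SMOX, spermine oxidase, went from 9.26, 8.96 and 8.52 to 10.56, 10.84 and 9.38, and AZIN1, which protects ornithine decarboxylase from antizyme, was higher by 0.59, 1.35 and 0.76. The arrays of the groups did not overlap for SAT1 and SMOX and overlapped for AZIN1, and no gene of the 3 passed in limma with or without the block. This grouping was made after the values were seen.

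Integrated stress response and endoplasmic reticulum genes were also among the 99. DDIT3, which encodes CHOP, went from 7.25, 5.70 and 6.51 to 9.89, 9.79 and 8.27. The groups did not overlap, but the unexposed arrays themselves had an SD of 0.78 (n = 3), and the difference of 2.83 (95% interval 1.59 to 4.06) had an adjusted p of 0.266 in limma. SESN2, a sestrin that restrains growth signalling, went from 9.01, 8.76 and 9.24 to 11.17, 12.15 and 10.59 (adjusted p = 0.0603, limma, 0.02 to 0.548 over 19 alternatives). TRIB3, a pseudokinase that CHOP induces, was higher by 1.07, 2.46 and 0.63 and ATF3, a repressor of the same programme, by 1.43, 1.82 and 0.60. Of 21 tested members of the integrated stress list 4 moved by over 0.5 in all pairs, 11 were higher and 0 lower in all pairs, and the median was 0.20. DDIT4, an inhibitor of mTOR signalling, had differences of 1.47, 2.91 and 0.41 and missed the rule in pair 3, as did CTH (0.75, 1.55 and 0.47), a cysteine-making enzyme. ATF4, whose activity is set mostly by translation, differed by 0.32.

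Aminoacyl-tRNA synthetases, which ATF4 also induces, were higher in all pairs for 11 of 17 tested genes and lower in all pairs for 0, with a median of 0.21. GARS1, the glycyl enzyme, was the member over 0.5 in all pairs (0.60, 1.26 and 0.67), followed in size by CARS1 at 0.57 and WARS1 at 0.46. Endoplasmic reticulum chaperones and sensors had 9 of 17 higher and 0 lower in all pairs, with a median of 0.15. SDF2L1, a lumenal chaperone partner, went from 7.48, 6.71 and 6.85 to 9.18, 8.58 and 7.47, and XBP1, the spliced factor of the unfolded protein response, was higher by 0.75, 1.36 and 0.62; their arrays overlapped between groups. The C/EBP-ATF letters TGATGCAA or TGATGAAA stood in 0 of 72 promoters of higher genes and in 0.872% of all, which says only that these letters are not in those windows.

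Secreted signals were led by IL11, which signals through gp130 like interleukin-6. IL11 went from 6.89, 6.92 and 7.13, the tightest unexposed values of the called genes, to 10.02, 11.10 and 9.44. The groups did not overlap and IL11 rose by 3.21 (95% interval 2.43 to 3.99, 9.24-fold, adjusted p = 0.00555, limma), a call that was lost with the block (adjusted p = 0.0712, 0.00258 to 0.548 over 19 alternatives). LIF, another cytokine that uses gp130, went from 5.38, 4.78 and 5.41 to 7.57, 7.17 and 6.20 (adjusted p = 0.227, limma). Of 13 tested members of the interleukin-6 family list these 2 moved by over 0.5 in all pairs, 6 were higher and 0 lower in all pairs, and the median was 0.09. The feedback inhibitor SOCS1 differed by 0.71, the receptor-coupled kinase JAK1 by 0.25, STAT3 by 0.11 and the receptor subunit OSMR by -0.06.

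CXCL8, the neutrophil chemokine interleukin-8, went from 6.71, 7.07 and 7.65 to 9.91, 10.10 and 9.69. It rose by 2.76 (95% interval 2.18 to 3.34, 6.77-fold, adjusted p = 0.00278 in limma, 0.0426 with the block and 0.00133 to 0.548 over 19 alternatives). KITLG, stem cell factor, was the smallest of the 99 in mean difference, at 0.57, yet its pairs of 0.51, 0.60 and 0.59 were even and it passed with the block (adjusted p = 0.0241, limma, 0.0241 to 1 over 19 alternatives). MMP10, a secreted matrix protease, went from 5.60, 5.93 and 6.49 to 8.42, 9.38 and 8.97 and rose by 2.92 (7.57-fold, adjusted p = 0.00421 in limma, 0.034 with the block and 0.00181 to 0.548 over 19 alternatives). Of 25 tested inflammatory genes 3 moved by over 0.5 in all pairs (CXCL8, PTGS2 and IL1RL1), 8 were higher and 1 was lower in all pairs, and the median was 0.06. CXCL2, a related chemokine, differed by 0.90, 0.49 and 0.00, the adhesion receptor ICAM1 by 0.64, 0.15 and 0.04, CCL2 by 0.58, 0.00 and -0.09 and the NF-kB regulator BCL3 by -0.20, -0.41 and -0.37. Of 12 tested matrix protease and clotting genes MMP10 alone moved, 4 were lower in all pairs, and MMP1 differed by 0.05 and thrombomodulin (THBD) by -0.36.

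The AP-1 letters TGACTCA, searched on both strands, stood in 8 of the 72 promoters of higher genes (11.1%) and in 3.04% of all; they can overlap the antioxidant letters above. The promoters of CXCL8 and IL11, the chemokine and the cytokine that rose most, are shown with that match in capitals, at chr4:73740319-73740568 (plus strand) and chr19:55370464-55370713 (minus strand) of GRCh38.p14, from RefSeq.
CXCL8: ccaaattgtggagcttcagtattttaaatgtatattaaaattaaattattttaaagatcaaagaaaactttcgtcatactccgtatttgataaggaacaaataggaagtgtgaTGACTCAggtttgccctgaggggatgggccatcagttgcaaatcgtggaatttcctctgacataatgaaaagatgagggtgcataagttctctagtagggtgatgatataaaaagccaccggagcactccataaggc
IL11: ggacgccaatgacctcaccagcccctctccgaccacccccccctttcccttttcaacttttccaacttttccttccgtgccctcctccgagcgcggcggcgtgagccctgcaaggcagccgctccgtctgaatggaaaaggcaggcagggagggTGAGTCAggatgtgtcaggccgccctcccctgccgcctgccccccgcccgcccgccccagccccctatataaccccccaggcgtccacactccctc
The match starts 137 bases before the start of CXCL8 and 96 bases before that of IL11, where it reads on the opposite strand. The other 6 genes with the letters were ABL2, BAG3, DDIT3, HSPA6, MBNL2 and STATH. The cyclic AMP element TGACGTCA stood in 4.17% of the 72 promoters and 2.58% of all, and the E-box CACGTG in 2.78% and 8.42%.

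**Figure D1:**
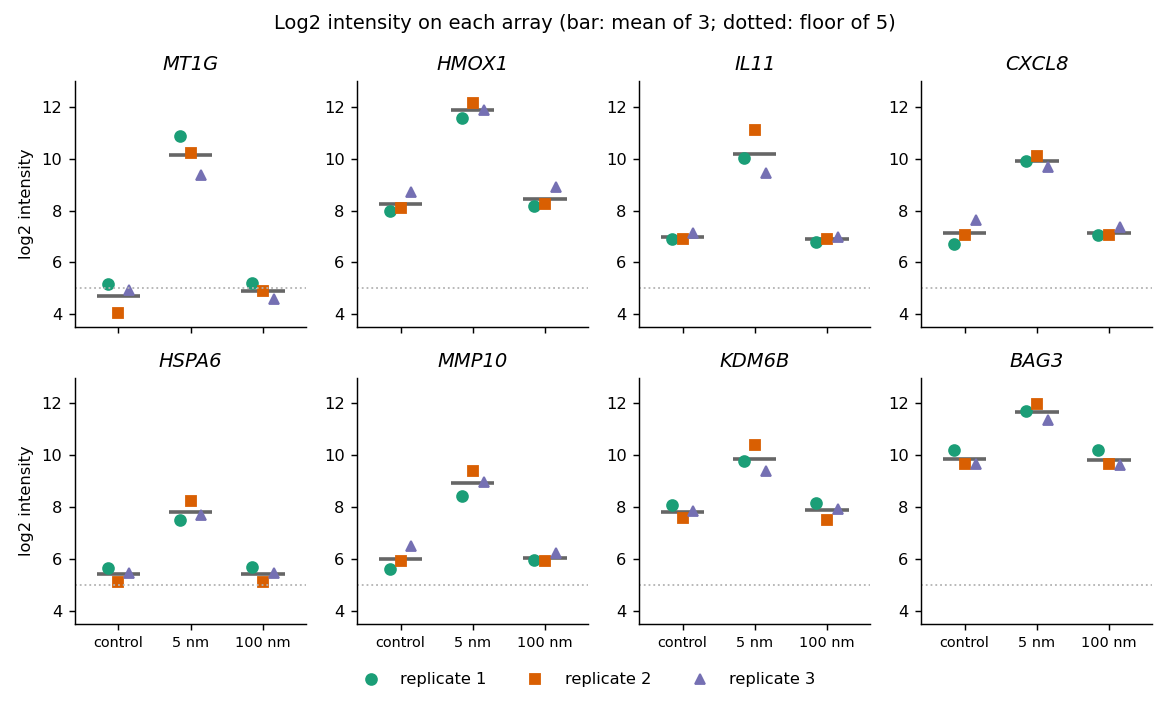
Log2 intensity on the y axis for 8 genes that passed in limma, on each array of unexposed (control), 5 nm and 100 nm cells on the x axis. Points are replicates 1, 2 and 3, bars are means of 3 arrays and the dotted line is the floor of 5. The 5 nm arrays stood above both other groups in every panel, and MT1G was near the floor in both other groups.

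Lipid mediator enzymes and receptors also moved. PTGS2, the inducible cyclooxygenase of prostaglandin synthesis, went from 8.41, 8.71 and 10.21 to 11.44, 12.31 and 11.40. Its unexposed value in replicate 3 was high, so pair 3 differed by only 1.19 against 3.03 and 3.60, and the adjusted p was 0.36 in limma. SPHK1, which makes sphingosine 1-phosphate, was higher by 1.03, 1.08 and 0.66, and the phospholipase PNPLA8 by 0.94, 1.54 and 0.58. Among receptors, IL1RL1, the interleukin-33 receptor, went from 7.81, 6.57 and 7.63 to 9.07, 8.91 and 8.77. IL7R, the interleukin-7 receptor chain, was higher by 0.99, 2.07 and 0.95, the collagen receptor DDR2 by 1.15, 1.47 and 0.97, the succinate receptor SUCNR1 by 0.78, 1.54 and 2.45 and the lymphatic hyaluronan receptor LYVE1 by 1.17, 2.71 and 0.71. The groups did not overlap for these receptors except LYVE1, and SUCNR1 was the receptor whose largest difference was in pair 3. None of these 3 enzymes and 5 receptors passed in limma with or without the block.

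Transcription regulators and early response genes made up 13 of the 99. EGR1, a zinc finger early gene, went from 6.67, 8.29 and 9.84 to 9.53, 10.08 and 10.98. Its unexposed arrays had an SD of 1.59 (n = 3) and overlapped the exposed ones, and the other, dimmer probe set of EGR1 gave 0.00 in every pair. ARC was higher by 0.90, 2.39 and 0.83, IER5, an early gene that takes part in HSF1 regulation, by 1.04, 1.86 and 0.93, CSRNP1 by 0.88, 2.12 and 0.75 and the GTPase GEM by 1.15, 1.87 and 0.69. These 5 were the moved members of 24 tested immediate-early genes, of which 10 were higher and 3 lower in all pairs, with a median of 0.16. JUNB differed by 1.33, 1.82 and 0.33 and FOSB by 1.23, 0.82 and 0.20, both short of the rule in pair 3, while MYC differed by -0.23 and KLF2, a flow-induced endothelial factor, by -0.27.

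Other regulators in the group were SNAI1, the epithelial to mesenchymal transition repressor, which went from 9.63, 9.11 and 9.39 to 11.05, 11.27 and 10.13, and SKIL, a brake on SMAD signalling (0.55, 1.27 and 0.52). These were the 2 moved members of 14 tested TGF-beta, BMP and YAP targets, whose median was 0.05. MXD1, a MAX partner that opposes MYC, had unexposed values of 8.78, 8.72 and 8.74 and exposed values of 9.96, 10.55 and 9.57. BMAL1, a core clock factor, was higher by 0.89, 1.85 and 0.77 and was the member over 0.5 in all pairs of 9 tested clock genes, where CRY1 differed by 0.99, 1.56 and 0.45 and the median was 0.10. HIVEP2 (1.61), ARID5A (1.33), IFRD1 (1.19) and GCM1 (0.71) completed the group, and a second HIVEP2 probe set differed by 0.37, 0.00 and 0.00. GCM1 rose from a mean of 4.72 that lay under the floor. It reached the floor only on the 5 nm arrays (5.52, 5.32 and 5.44), so it was tested only through the group where it was high.

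Chromatin genes included 3 histone demethylases. KDM6B, which removes methyl groups from histone H3 lysine 27, went from 8.07, 7.56 and 7.85 to 9.77, 10.40 and 9.38 and rose by 2.02 (95% interval 1.37 to 2.67, adjusted p = 0.0453 in limma, 0.107 with the block and 0.0282 to 0.548 over 19 alternatives). KDM7A, another demethylase of repressive marks, went from 6.69, 6.00 and 6.37 to 8.95, 9.09 and 7.35, and JMJD1C from 9.32, 8.99 and 8.74 to 10.34, 11.02 and 9.76. The arrays did not overlap between groups for these 3. Of 19 tested Jumonji and other demethylase genes, 8 were higher and 3 lower in all pairs with a median of 0.13; JMJD6 differed by 0.61 and RIOX1 by -0.54. TMEM88, an inhibitor of WNT signalling that lies 0.27 kb from KDM6B, was higher by 1.58, 2.55 and 1.53 beside 1.69, 2.84 and 1.54 for KDM6B, and the arrays cannot say whether 1 transcript gives both signals. RYBP, a Polycomb subunit, was higher by 1.23, 2.24 and 0.80, TSPYL2 by 1.28, 1.44 and 0.83, and MORC1 and ATF7IP2 by 1.66 and 0.97 from unexposed means under 5.

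Signalling brakes, ubiquitin and death genes followed. TRIB1, a pseudokinase that steers a ubiquitin ligase, was higher by 1.28, 1.72 and 0.55 and ERRFI1, an inhibitor of EGF receptor signalling, by 0.81, 1.66 and 0.76. They were the moved members of 16 tested MAPK feedback genes, of which 6 were higher and 2 lower in all pairs (median 0.30); the phosphatase DUSP1 differed by 1.27, 1.78 and 0.46, and DUSP4 by -0.40. The Notch feedback gene NRARP was higher by 1.15, 2.12 and 1.70, the RAS-like RIT1 by 1.00, 1.39 and 0.71, the kinase ABL2 by 0.64, 1.25 and 0.66 and the JNK scaffold SPAG9 by 0.54, 1.30 and 0.63. A second, dimmer ABL2 probe set differed by 0.23, 1.05 and 0.00, short of the rule. In adhesion, the integrin activator FERMT2 was higher by 0.83 and TES, a focal adhesion protein, by 1.15, and the keratin-associated gene KRTAP2-3 went from 9.18, 9.69 and 8.69 to 10.57, 10.74 and 10.70.

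FBXO30, a ubiquitin ligase subunit, went from 10.09, 9.67 and 9.17 to 11.05, 11.02 and 10.35 and passed with the block (difference 1.16, adjusted p = 0.0285, limma, 0.0237 to 1 over 19 alternatives). KBTBD8, a substrate adaptor, was higher by 1.27, 2.40 and 0.93, YPEL5 by 1.05 and the deubiquitinase family member USP53 by 0.85. FBXO30 was the moved member of 18 tested ubiquitin and proteasome genes, of which 7 were higher and 0 lower in all pairs; polyubiquitin UBB differed by 0.55, 1.68 and 0.20 and the ATPase VCP by 0.35, 0.40 and 0.33. PMAIP1, the pro-death gene NOXA, went from 8.99, 8.04 and 8.43 to 9.99, 10.38 and 9.22, and DEDD2, a death effector gene, was higher by 1.07, 2.27 and 0.62. PMAIP1 was the moved member of 13 tested p53 targets, of which 2 were higher and 8 lower in all pairs (median -0.39), with SESN1 at -0.69 and TP53INP1 at -0.67. Among 16 BCL2 family genes 0 moved; the pro-survival gene BCL2A1 was just outside the rule at 0.693, 0.495 and 0.520, MCL1 differed by 0.44 and the pro-death gene BAK1 by -0.53.

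Sterol genes moved without the pathway as a whole. INSIG1, the sterol-sensing brake on SREBP, went from 9.13, 8.43 and 8.76 to 10.51, 10.86 and 9.96. HMGCS1, an enzyme at the head of the pathway, went from 6.83, 6.40 and 5.82 to 7.72, 8.33 and 6.69 with overlapping arrays. HSD17B7, which acts in late cholesterol synthesis, was higher by 0.55, 1.82 and 0.65. Its unexposed values of 5.34, 5.08 and 5.10 lay close to the floor of 5, so these sizes are uncertain. It lies 3.3 kb from DDR2, which was also higher, and whether the 2 genes share signal was not tested. Of 21 tested sterol and lipid genes 5 were higher and 1 was lower in all pairs, the median was 0.00, STARD4 and IDI1 differed by 0.61 and 0.55, and mevalonate kinase MVK by -0.29.

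Several gene lists held no gene over 0.5 in all pairs, which covers only their listed members. The ligands KITLG and GDF6, which moved, are not on the growth factor list. In 27 autophagy and lysosome genes 6 were higher and 0 lower in all pairs (median 0.03), with MAP1LC3B at 0.94 and GABARAPL1, another autophagosome protein, at 0.88. In 19 growth factors 5 were higher and 4 lower, with VEGFA at 0.97, 1.89 and 0.45 and HBEGF just outside the rule at 0.604, 1.121 and 0.491, and BMP6 at -0.39. In 10 hypoxia and glycolysis genes, VEGFA aside, hexokinase HK2 differed by 0.36 and lactate dehydrogenase LDHA by -0.16. In 22 splicing control genes 6 were higher and 1 lower, with the kinase CLK1 at 0.73 and HNRNPA1 at -0.18. Differences were near 0 in 21 ribosomal protein genes (-0.12 to 0.00), 9 respiratory chain genes (-0.18 to 0.03) and 6 housekeeping genes (-0.09 to 0.06).

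**Figure D2:**
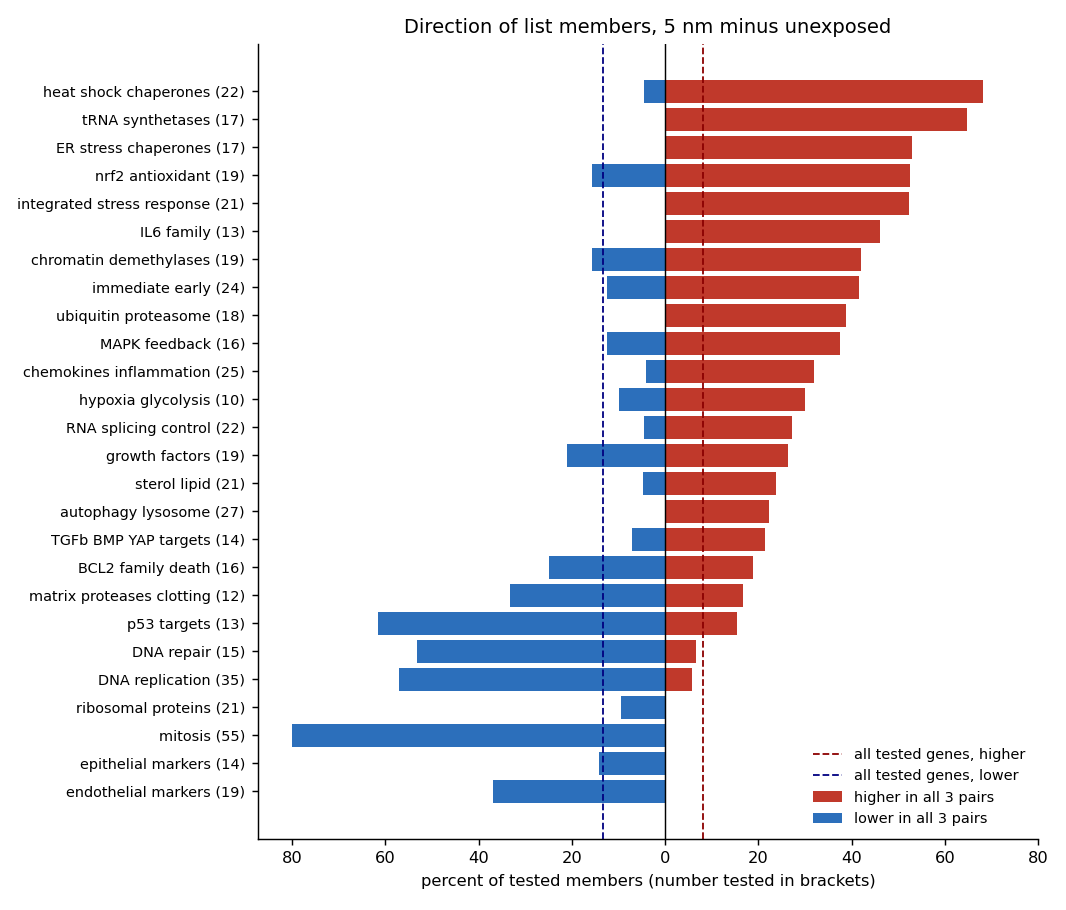
For each gene list reported here with at least 10 tested members (number in brackets), bars show the percent of members higher (right) or lower (left) in all 3 pairs after 5 nm particles, and dashed lines show the same for all 12155 tested genes, 8.03% and 13.4%. Heat shock genes were higher for 15 of 22 members and mitosis genes lower for 44 of 55.

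Of the 18 lower genes, 4 were cell division genes by function. All 55 tested mitosis genes had a negative mean difference and 44 were lower in all 3 pairs, where 13.4% of all tested genes were. In this list 3 genes were lower by over 0.5 in each pair. The list's median was -0.51, with -0.49, -0.83 and -0.21 in pairs 1, 2 and 3. CCNA2, cyclin A2 of S phase and mitosis, went from 11.65, 11.10 and 10.69 to 10.95, 9.65 and 10.17. CCNF, the cyclin that directs a ubiquitin ligase, went from 9.68, 8.67 and 8.53 to 8.82, 7.28 and 7.96, and ESPL1, separase, which cuts cohesin, from 9.50, 8.85 and 8.52 to 8.68, 7.76 and 8.02. The groups overlapped for these 3 genes, with the exposed array of replicate 1 above the lowest unexposed array, and none of the 3 passed in limma with or without the block. Over the 55 listed genes, 1 passed lower with the block and 0 without it, where 43 of all tested genes (0.354%) passed lower with the block. TROAP, a spindle-associated protein outside the list, differed by -0.78, -1.78 and -0.62 with no overlap. GTSE1 (-0.82, -1.34 and -0.47), MKI67 (-0.64, -1.36 and -0.39), KIF20A (-0.59, -1.19 and -0.37) and AURKB (-0.50, -1.03 and -0.43) were short of the rule in pair 3.

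DNA replication genes were lower in all pairs for 20 of 35 and higher for 2, with a median of -0.29 and 0 moved. E2F8, a repressor of the E2F family, was just outside the rule at -0.810, -2.118 and -0.484, PCNA, the polymerase clamp, differed by -0.64 and SLBP, the histone mRNA binding protein, by 0.28. Of 15 DNA repair genes 8 were lower and 1 was higher in all pairs (median -0.31), with the glycosylase NEIL3 at -0.81 and the ligase RAD18 at 0.18. RRS1, a ribosome assembly factor, and LINC01139 also lay just outside, at -0.484, -1.511 and -0.755 and at -0.584, -1.367 and -0.491. Just inside the lower limit were ESPL1 (-0.501 in pair 3), MN1 (-0.504) and PALMD (-0.505). Just inside the upper limit were USP53 (0.504 in pair 1), MEG3 (0.506 in pair 3) and MIR329-1 (0.508 in pair 1).

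The other lower genes shared no list. SIM1, a developmental transcription factor, had the largest difference, from 8.53, 7.99 and 7.29 to 7.57, 5.92 and 6.62, with overlapping arrays. PTGER4, a prostaglandin E2 receptor, went from 9.35, 8.73 and 8.71 to 8.71, 7.32 and 8.03, with no overlap. GDF6, a BMP family ligand, differed by -0.58, -0.55 and -0.56 and passed with the block (adjusted p = 0.0173, limma, 0.0173 to 1 over 19 alternatives). EVI2B differed by -1.13, PALMD by -1.06, PRAG1 by -0.93, CABYR by -0.84, the transcription regulator MN1 by -0.76, PRR16 by -0.62 and PSCA by -0.56. TMPO-AS1, an antisense transcript of TMPO, differed by -0.83, -1.15 and -0.77 and TMPO, which makes lamina-associated proteins, by -0.62, -0.97 and -0.30; without a stated strand the 2 cannot be told apart.

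**Figure D3:**
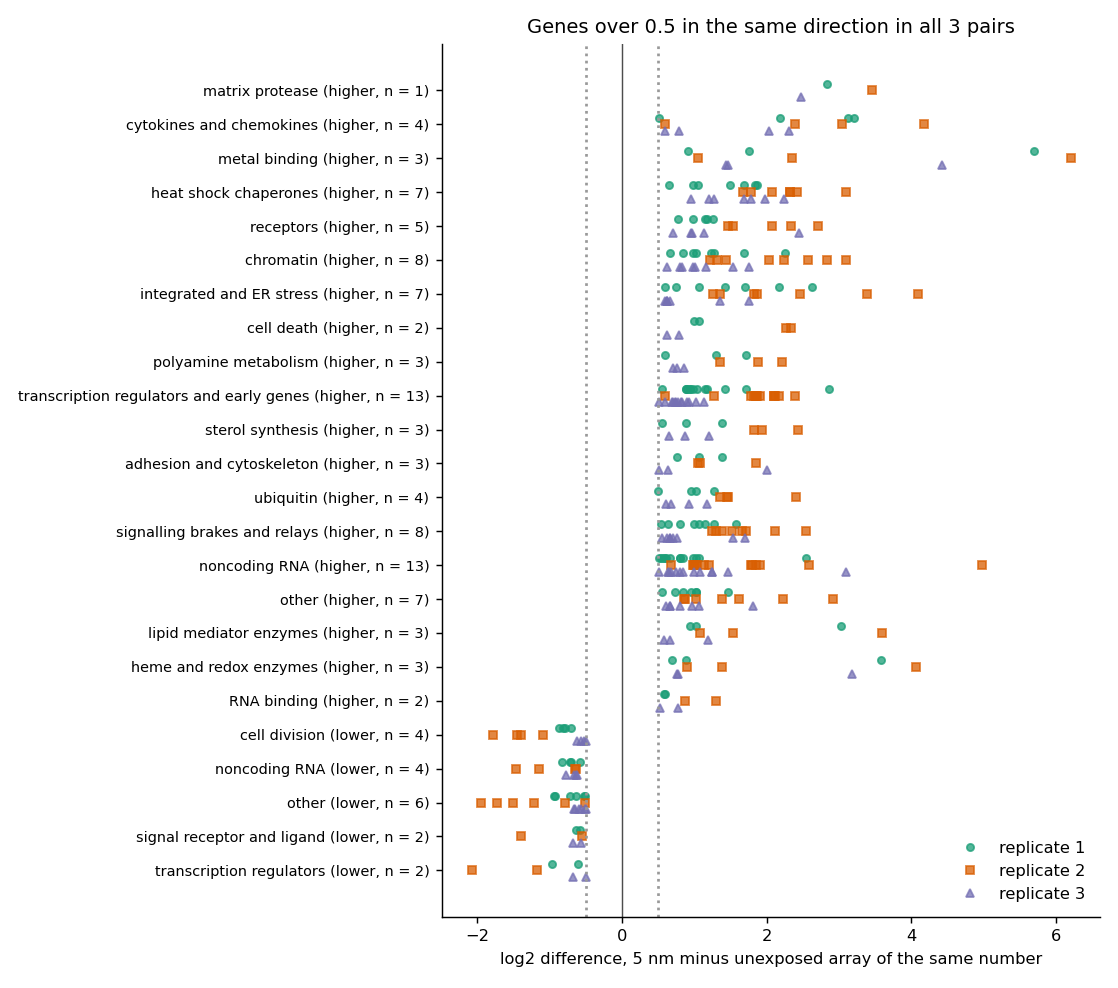
Log2 difference, 5 nm array minus unexposed array of the same replicate number (x axis), for each of the 117 genes over 0.5 in the same direction in all 3 pairs, in groups by function (y axis, number of genes after the name). Points are replicates 1, 2 and 3 and dotted lines mark 0.5 each way. Replicate 2 lies farthest from 0 in most groups, and the lower genes are fewer and closer to the limit.

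Of 1427 tested noncoding genes (501 microRNA and 926 lncRNA genes), 13 (0.911%) were among the 99 higher and 3 (0.210%) among the 18 lower genes, shares near the 0.814% and 0.148% of all tested genes. LINC00622 went from 4.88, 4.42 and 5.05 to 7.43, 9.39 and 8.15 and rose by 3.54 (adjusted p = 0.0365 in limma, 0.133 with the block and 0.0105 to 0.548 over 19 alternatives). Its unexposed mean of 4.78 lay under the floor, so the size is uncertain. LINC00624 was higher by 1.02, 2.59 and 1.46 from a mean of 4.13, also under the floor. FBXL19-AS1 was higher by 0.57, 1.86 and 0.75, while the overlapping FBXL19 differed by 0.00, 0.00 and -0.02, and MIR7-3HG was higher by 0.95. The pseudogene DSTNP2, counted in neither class, differed by -0.63. KCNJ2-AS1 differed by -0.71, -0.63 and -0.63 and passed with the block (adjusted p = 0.035, limma, 0.035 to 1 over 19 alternatives).

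MicroRNA probe sets on such an array read the hairpin or the transcript that contains it, not the mature form. MEG3, an imprinted noncoding gene on chromosome 14, was higher by 0.54, 0.98 and 0.51, and 2 microRNA genes 166 and 199 kb from it, MIR329-1 (0.51, 1.78 and 0.80) and MIR154 (0.85, 1.91 and 1.24), were higher as well. A second MEG3 probe set, with a mean level of 4.39 under the floor, differed by 0.35, 1.49 and 0.25. MIR154 went from 5.31, 3.58 and 2.43 to 6.17, 5.48 and 3.66, mostly under the floor. MIR196B, a HOXA cluster microRNA, was the lower microRNA gene (-0.70, -1.46 and -0.62), beside -0.18, -0.39 and -0.14 for the overlapping HOXA10-AS. The mature sequences of these 3 genes are shown because they are the imprinted neighbours and the lower gene, with bases 2 to 8, the seed that pairs with targets, in capitals (RefSeq, GRCh38.p14).
hsa-miR-329-5p: gAGGUUUUcuggguuucuguuuc
hsa-miR-329-3p: aACACACCugguuaaccucuuu
hsa-miR-154-5p: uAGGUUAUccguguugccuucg
hsa-miR-154-3p: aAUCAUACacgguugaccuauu
hsa-miR-196b-5p: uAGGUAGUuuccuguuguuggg
hsa-miR-196b-3p: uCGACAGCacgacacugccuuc
No seed was shared among the 12 mature sequences found for the moved microRNA genes. For 3 others the host gene could be set beside them. MIR2909 (1.06, 1.14 and 1.00) lies in AATF, which differed by 0.00, 0.00 and -0.02, MIR637 (0.81, 1.21 and 0.68) in DAPK3, at 0.66, 0.99 and 0.24, and MIR644A (0.61, 1.80 and 0.85) in ITCH, at 0.30, 0.90 and 0.21. A second MIR2909 probe set differed by 0.27, 0.00 and 0.61 and a second MIR4518 set by 0.70, 0.13 and 0.17, so these 2 rest on 1 probe set each. MIR4518 was higher by 1.04 in its brighter set, MIR4525 by 0.82 and MIR3916 by 0.67.

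The remaining higher genes had no shared role. SPMIP1 went from 6.26, 6.14 and 6.15 to 7.72, 9.06 and 7.97 (adjusted p = 0.0634, limma). SLFN5 was higher by 1.11, TRIML2 by 1.31, ZNF804A by 1.00 and NRIP3 by 0.68. ENTPD7, a nucleotide-cleaving enzyme, had even differences of 0.84, 0.87 and 0.80 and passed with the block (adjusted p = 0.00925, limma, 0.00925 to 1 over 19 alternatives). By symbol, 1 of 453 tested ZNF genes (ZNF804A), 1 of 200 TMEM genes (TMEM88) and 0 of 29 SLC genes were among the 99. The share over all tested genes was 0.814%, so nothing is read from these small counts. STATH, a salivary protein gene, was higher by 1.02, 1.02 and 1.07 from values of 5.27, 4.07 and 5.76 and also passed with the block (adjusted p = 0.0462, limma, 0.0462 to 1 over 18 alternatives). The RNA-binding proteins CPEB4 and MBNL2 were higher by 0.89 and 0.66. In structure, 86 of the 99 were protein-coding, with a median gene length of 17.6 kb beside 27.4 kb for the 14 lower protein-coding genes and 26.2 kb for all 10382 tested ones. The median unexposed level was 7.80 for the higher and 8.35 for the lower genes, beside 7.02 for all tested genes.

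The 100 nm arrays were not used to choose these genes, although the unexposed arrays are shared between the 2 comparisons and the 5 nm arrays between this comparison and that of 5 nm minus 100 nm. Over the 99 higher genes the mean 100 nm difference from unexposed arrays lay between -0.26 and 0.25 with a median of 0.00, and 5 of their 297 pair differences exceeded 0.5 in size, the largest 0.85 for MT1G. Over the 18 lower genes it lay between -0.14 and 0.05, and 0 of 54 pair differences exceeded 0.5. Among all 12155 tested genes, 25, 46 and 66 differed by over 0.5 either way after 100 nm particles in pairs 1, 2 and 3. Large 100 nm differences were thus rare over all tested genes as well, and whether the shares differ was not tested. In numbers for named genes, HMOX1 stood at 8.18, 8.25 and 8.90 after 100 nm particles, IL11 at a mean of 6.89 ± 0.11 (SD, n = 3), CXCL8 at 7.04, 7.07 and 7.35 and HSPA1A at 11.99, 11.82 and 11.23. Each of these sets overlapped the unexposed values given above. Within pairs, the 100 nm differences were 0.20, 0.15 and 0.18 for HMOX1, -0.11, -0.03 and -0.13 for IL11 and 0.34, 0.00 and -0.30 for CXCL8, so HMOX1 was slightly higher and IL11 slightly lower in all 3 pairs. The 100 nm minus unexposed difference had 95% intervals of -0.46 to 0.81 for HMOX1, -0.87 to 0.69 for IL11 and -0.57 to 0.59 for CXCL8 in the fit without the block.

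Tested directly, 5 nm minus 100 nm, 8 genes (0.0658%) passed in limma, all higher with 5 nm particles and all among the 99. With the block 75 genes (0.617%) passed, 12 of them among the 99 and 2 among the 18. Of the 99 higher genes, 89 were above the 100 nm array of the same number by over 0.5 in all pairs, and 11 of the 18 lower genes were below it by as much. Both sets were chosen for their values on these same 5 nm arrays, and the share over all tested genes is not given. Nothing is therefore read from these counts. Differences between the particles were 5.27 for MT1G, 3.43 for HMOX1, 3.30 for IL11, 2.75 for CXCL8 and 2.38 for HSPA6 (adjusted p = 0.000956, 0.00115, 0.00514, 0.00289 and 0.00523, limma), and 3.01 for DDIT3 (0.183). The size of the MT1G difference is uncertain for the reason given above. The count of 8 became 19 when 5 nm array 3 was left out, and that of 75 with the block became 7 to 449 when 1 array was left out.

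**Figure D4:**
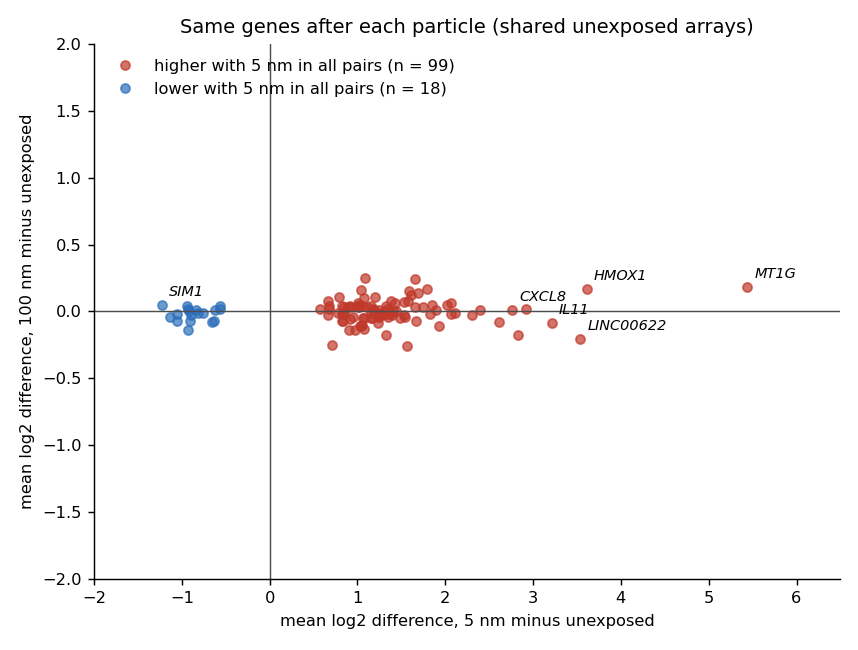
Mean log2 difference from the unexposed arrays after 5 nm particles (x axis) and after 100 nm particles (y axis), each over 3 pairs, for the 99 higher (red) and 18 lower (blue) genes; both axes share the unexposed arrays. On the y axis all points lie between -0.26 and 0.25, while on the x axis they reach 5.44.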

How the data were processed

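The deposited values were log2 intensities of 53617 probe sets on 9 arrays, which the authors made with RMA; the submitters' processing notes name Affymetrix Expression Console, version 1.3.1, for it. A genome build was not given in the sources. The platform annotation gave 1 gene symbol to 16098 probe sets and none to 37519 (70%); all 16098 matched by Entrez identifier and covered 14884 genes. A gene with several probe sets was represented by the one of highest mean log2 value, and a gene was tested if it reached a log2 value of 5 on at least 3 arrays, which left 12155 genes. Intensities carry no read depth, and 3 arrays per group limit the precision.

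Differences were taken between arrays of the same replicate number. The numbers pair the arrays: deviations from group means correlated at 0.762 to 0.967 between arrays of the same number (9 pairs); shared samples and shared processing cannot be told apart as its source. Genes were also tested with limma 3.58.1 in R 4.3.3 on all 9 arrays (group means, 6 residual degrees of freedom, or 4 with the replicate block), with Benjamini-Hochberg adjustment over all tested genes. The fit was tested on simulated data with independent residuals. Those data did not hold the identical values between arrays of the same number, so that test does not cover their effect on the p-values. Genes named were those past the threshold without the block, those over 0.5 in the same direction in all pairs, up to 3 members of each list with values for every array, 1 or 2 members each way of lists without such a gene, and the 3 genes on either side of each limit. Other list members named beside these were chosen after their values were seen. The genes, lists (957 symbols, 574 of them tested) and rules were chosen with earlier results of these data known, and functions were assigned after the values were seen. 1 list and 1 of the 99 higher genes are not reported here. Promoters (250 bases), mature microRNAs and gene positions came from RefSeq tables of GRCh38.p14, matched by gene identifier for 9178 of the 12155 genes.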

Additional observations from a re-analysis of the deposited data

How the results depend on the processing

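The count of 9 genes called for 5 nm minus unexposed arrays became 79 with the replicate block (36 higher, 43 lower), 0 with the block on the 6 arrays alone, 15 with a floor of 6 and 21 after quantile normalization over the 9 arrays, and was 6 to 15 without 1 array. The count of 8 for 5 nm minus 100 nm became 75 with the block, 15 with a floor of 6 and 21 after quantile normalization, and was 6 to 19 without 1 array. The 99 higher genes became 27 at a limit of 1, and 101 to 186 without 1 replicate. The 18 lower genes became 54 at a limit of 0.4, 7 at 0.6 and 0 at 1, and 21 to 116 without 1 replicate. A lower count of pairs to satisfy can only add genes. With the block, shifting the arrays to one median gave 160 calls and quantile normalization 240, both added after the data were seen. The cause of the other shifts was not tested. For the 99 higher and 18 lower genes, 2215 differences over 19 alternatives held 0 changes of sign. These genes were chosen for differences of the same sign in all pairs, and the alternatives reuse the same arrays. A change of sign was therefore unlikely from the start, and nothing is read from the 0. Of the 2215, 2129 stayed on the same side of the threshold, 43 lost a call and 43 gained one. Each of the 9 called genes lost its call in at least 1 alternative. Intensities near the floor of 5 limit the size of differences in the dimmest genes.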

Other observations

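Probe sets without a gene symbol were counted by the rule used for named genes, over 0.5 in all pairs. Of 21616 such probe sets that reached a log2 value of 5 on at least 3 arrays, 180 (0.833%) were higher and 60 (0.278%) lower by over 0.5 in all 3 pairs after 5 nm particles, and 29 moved either way after 100 nm particles.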
